A study of Mus musculus with 12 samples.

Results

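The response of MC38 tumour tissue to Salmonella in hosts labelled as TLR4 knockout was read from 6 of the 12 RNA-seq libraries of the series. Members were chosen by 2 labels, host genotype and treatment. The treated group held the 3 libraries of knockout C57BL/6 hosts that had received Salmonella intravenously 1 day earlier, and the control group held the 3 libraries of such hosts given PBS. MC38 is a mouse colon cancer line, and both groups share the host deletion and the tumour line. The other 6 libraries, 3 of wild-type C57BL/6 hosts under PBS and 3 under Salmonella, entered the fit and serve here for comparison. Libraries carry the names F-1, M-1 and M-2 in every group. The labels do not state the extent of the deletion, the cells it covers, the Salmonella strain or dose, or whether the tumour cells themselves carry the deletion. Nor do they name the animal behind each library, and the p-values therefore rest on a spread among libraries that could be partly technical.

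TLR4, with its partners MD-2 and CD14, recognises the lipopolysaccharide of Gram-negative bacteria and signals through the adaptors MyD88 and TRIF. Salmonella carries further ligands that other receptors sense: lipoproteins for TLR2, flagellin for TLR5 and for NAIP with NLRC4, cell wall peptides for NOD1 and NOD2, and nucleic acids for endosomal TLRs and cGAS. These pathways converge on NF-kB, which drives chemokine genes such as Cxcl1, Cxcl2 and Cxcl3. Their products recruit neutrophils through the receptor CXCR2, and mature neutrophils carry large amounts of the S100a8 and S100a9 transcripts. Type I interferon acts on interferon response elements and induces antiviral genes such as Ifit1.

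Promoters of genes that rose in knockout hosts under Salmonella are shown for the letters they hold, since the chemokine genes among them moved together. The sequences are from RefSeq, build GRCm38.p6, read 5′ to 3′ on the strand of each gene. The build the authors used is not given in the sources used here. Capitals mark matches, on either strand, to a kB-like motif GGNNTTTCC in the first 4 windows, to an interferon response-like motif GAAANNGAA in the Ifit windows, and to a C/EBP-like motif TTGCNNAA in S100a9. Adjoining Ifit1 matches overlap. Genes, motifs and windows were picked after the values were seen.
Cxcl1, chr5:90891116-90891223, plus strand: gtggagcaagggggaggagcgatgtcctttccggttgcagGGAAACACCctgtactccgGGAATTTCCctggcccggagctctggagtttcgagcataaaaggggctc
Cxcl2, chr5:90903763-90903870, plus strand: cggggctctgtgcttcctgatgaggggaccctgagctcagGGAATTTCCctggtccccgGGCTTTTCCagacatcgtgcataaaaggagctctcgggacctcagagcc
Cxcl3, chr5:90785989-90786077, plus strand: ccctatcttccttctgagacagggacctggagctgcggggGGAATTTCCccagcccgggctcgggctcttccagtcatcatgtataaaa
Saa3, chr7:46715815-46715903, minus strand: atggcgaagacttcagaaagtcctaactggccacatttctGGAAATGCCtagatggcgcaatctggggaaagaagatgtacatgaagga
Ifit1, chr19:34640740-34640853, plus strand: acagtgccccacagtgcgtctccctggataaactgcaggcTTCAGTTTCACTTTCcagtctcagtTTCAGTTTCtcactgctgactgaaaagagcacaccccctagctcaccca
Ifit1bl1, chr19:34602023-34602200, minus strand: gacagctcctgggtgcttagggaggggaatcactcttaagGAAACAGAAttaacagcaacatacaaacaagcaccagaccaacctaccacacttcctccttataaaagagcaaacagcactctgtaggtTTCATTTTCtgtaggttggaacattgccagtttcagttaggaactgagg
S100a9, chr3:90695910-90695971, minus strand: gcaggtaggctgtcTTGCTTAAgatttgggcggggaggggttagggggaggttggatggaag

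The same 9 letters, GGAATTTCC, stood 70 bases before the annotated start of Cxcl1, 96 before that of Cxcl2 and 72 before that of Cxcl3. Over windows of 300 bases, from 250 before to 50 after each start, the kB-like motif was present in 23.8% of the 21 windows matched to genes that rose at least 2-fold (18 of 23 such genes had a window), against 6.3% of the 12333 windows of all tested genes. The 5 matching windows were those of Cxcl1, Cxcl2, Cxcl3, Ifit1bl1 and Saa3. Those of Cxcl1, Cxcl2 and Cxcl3 lie near each other on chromosome 5 and may not be independent. The interferon response-like motif was present in 14.3% of those 21 windows, in 17.2% of the 29 windows of genes that rose by less and in 7.39% of all tested windows. The C/EBP-like motif was present in 42.9%, 10.3% and 8.65% of the same sets, with matches in Lcn2, Ly6g, Mmp8, Pf4, Retnlg, S100a9, Saa3 and Serpinb2. Windows of the genes that fell held these 3 motifs in 4.17%, 2.08% and 8.33% of 48. Searched as well were a STAT-like motif, TTCCNGGAA, and an AP-1 motif, TGANTCA. The STAT-like motif was present in 0% of the 21 windows, 3.45% of the 29, 0% of the 48 and 1.31% of all tested windows. For the AP-1 motif the shares were 9.52%, 6.9%, 6.25% and 5.48%. These shares describe letters in a window and carry no test.

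The 6 knockout libraries held 33099753 to 38758885 fragments on listed genes, recovered from the deposited FPKM (fragments scaled by gene length and by library total), and a count of 0 allowed up to 0.0774 to 0.0906 FPKM in a gene of 1 kb. Of 18609 listed genes, 12164 were tested. The FPKM of Tlr4 itself was 2.14, 3.15 and 1.59 under PBS and 1.72, 1.96 and 1.82 under Salmonella, with overlapping groups (log2 fold change -0.20, SE 0.20, adjusted p = 0.618). It was 2.48 to 2.58 in wild-type hosts under PBS, so this gene-level value does not tell the genotypes apart. Epithelial genes were near 0 in tissue labelled as colon cancer: Epcam reached 0.114 FPKM, Krt8 0.37 and Vil1 0.146 in the 6 libraries, and 2 of the 16 listed epithelial genes were tested. Among knockout libraries, Salmonella F-1 stood apart in skeletal muscle genes (summed FPKM 193, against 21.1 to 45.3 in the other 5) and adipocyte genes (126, against 16.4 to 33.5). The PBS libraries differed among themselves in MHC class II genes, with summed FPKM of 1880, 3480 and 671. In the wild-type hosts Salmonella M-2 stood apart, and it entered the pooled spread: without it 752 genes passed in knockout hosts. In bulk tissue, fewer cells of a type and less RNA per cell cannot be told apart.

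In knockout hosts a small set of genes rose by a large factor under Salmonella, and a larger set moved by little. Of 12164 genes, 54 were higher (0.444%) and 40 lower (0.329%) under Salmonella at an adjusted p under 0.05 by limma with Benjamini-Hochberg adjustment. The rises included 23 of at least 2-fold and 15 of at least 8-fold, led by S100a9, S100a8, Lcn2, Cxcl2, Cxcl3 and Retnlg. The falls included 5 of at least 2-fold, among them Spon2, Cx3cl1, Itgax and Ecrg4. The other 31 rises and 35 falls were under 2-fold. All 94 genes had non-overlapping groups, as did 1597 genes in all that were higher and 1975 that were lower. At an unadjusted p under 0.05, 1173 genes were higher (9.64%) and 1144 lower (9.40%). A fit on the 6 knockout libraries alone called 119 higher (1.02%) and 69 lower (0.590%) of 11700, and 72 of the 94 were called in both fits. Without scaling, on the values as deposited, the split was 43 higher and 21 lower. Leaving out 1 knockout library changed the number of calls. With 1 control left out, 5 genes passed where it was F-1, 12 where it was M-1 and 307 where it was M-2. With 1 treated library left out, 4 passed where it was F-1, 28 where it was M-1 and 6 where it was M-2. With a wild-type control left out the numbers were 44 for F-1, 57 for M-1 and 21 for M-2. Pf4, Retnlg, S100a8 and S100a9 passed in each of these fits.

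**Figure D1:**
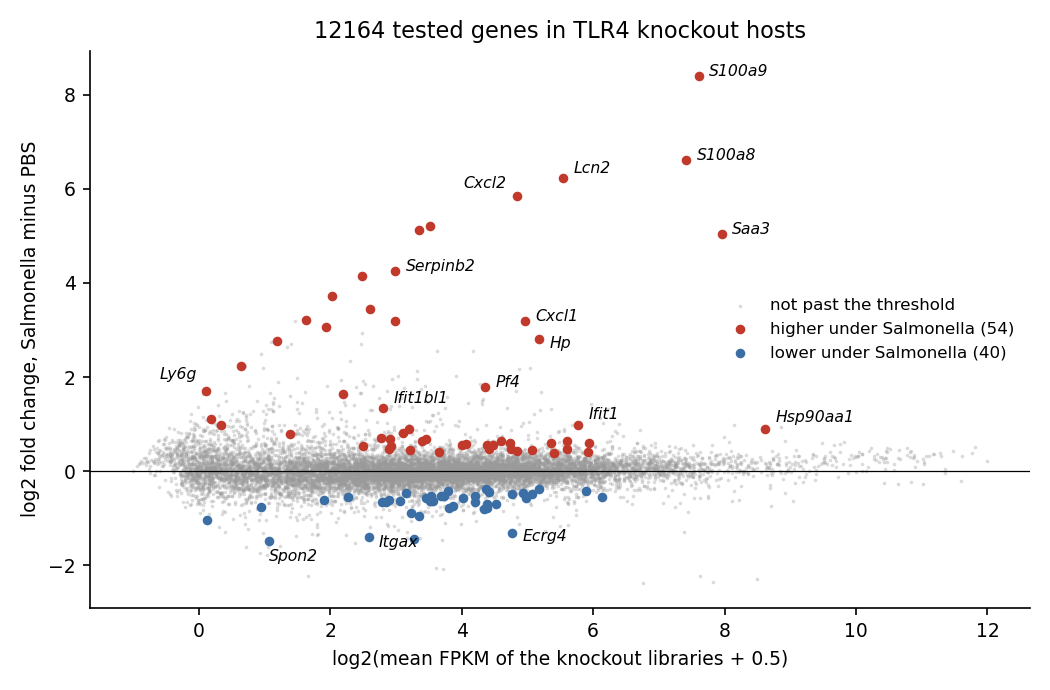
Log2 fold change (Salmonella minus PBS, vertical axis) against mean level (log2 of mean FPKM + 0.5, horizontal axis) for the 12164 tested genes, with the 54 higher genes in red and the 40 lower in blue. The rises reach 8.40 for S100a9, while the largest fall is -1.48 for Spon2.

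Neutrophil genes made up the largest group of rises. Of 35 tested neutrophil markers, 11 rose and 0 fell, with a median log2 fold change of 1.80 against 0.00 over all tested genes, and 24 were higher at an unadjusted p under 0.05. The 11 were S100a8, S100a9, Retnlg, Cxcr2, Mmp8, Ly6g, Lcn2, Stfa2l1, Fpr1, Asprv1 and Wfdc21. Markers near 0 under PBS, such as Retnlg, Cxcr2 and Wfdc21, met the expression filter through treated libraries and had little room to fall. The absence of falls and the list median are therefore partly set by the filter. In the fit on knockout libraries alone 17 of 29 were higher, and without wild-type Salmonella M-2 20 of 32. Without knockout Salmonella F-1, 3 rose, and voom on the recovered fragments of all 12 libraries called 1 of 35, Ly6g.

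S100a9 and S100a8 encode the subunits of calprotectin, an abundant cytosolic protein of neutrophils that binds calcium and chelates metal ions. S100a9 stood at 0.634, 0.993 and 0.314 FPKM under PBS and at 381, 264 and 518 under Salmonella (log2 fold change 8.40, SE 0.77, adjusted p = 0.00364). S100a8 stood at 2.08, 4.32 and 2.66 FPKM under PBS and at 384, 238 and 389 under Salmonella (6.62, SE 0.69, adjusted p = 0.006). Every treated library lay far above every control, and M-1 was the lowest treated library for both genes. Lcn2, the siderophore-binding protein lipocalin 2, was at 1.91, 0.458 and 0.0322 FPKM under PBS and at 94.1, 38.6 and 143 under Salmonella (6.24, SE 0.75, adjusted p = 0.00996). The order of the treated libraries was that of S100a9, with M-2 highest and M-1 lowest.

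Retnlg, a resistin-like gene of mature neutrophils, was listed at 0, 0 and 0.0903 FPKM under PBS and at 28.4, 14.9 and 14.5 under Salmonella (adjusted p = 0.00598). These are 2 fragments against 1323 over the groups, a depth-scaled ratio of 631 with an exact 95% interval of 174 to 5220 that covers counting error only. Ly6g, the surface antigen that defines mouse neutrophils, was at 0 in the 3 PBS libraries and at 1.11, 1.21 and 1.13 FPKM under Salmonella (adjusted p = 0.0255). Its 122 fragments were at least 38.8-fold higher than the 3 fragments that a count of 0 over the group allows. The receptor gene Cxcr2 went from 0.00968, 0.075 and 0.0967 FPKM to 3.72, 2.17 and 4.67 (log2 fold change 2.77, SE 0.36, adjusted p = 0.0102). None of the 3 genes overlapped between groups.

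Further members of the neutrophil list rose from low levels. Mmp8, the neutrophil collagenase, went from 0.111, 0.626 and 0.168 FPKM to 7.08, 3.41 and 8.6 (log2 fold change 3.06, adjusted p = 0.0412). Fpr1, the formyl peptide receptor that senses bacterial peptides, went from 1.6, 1.49 and 0.207 FPKM to 15.5, 6.73 and 19.1 (3.20, adjusted p = 0.0405, and 0.0585 in the fit on knockout libraries alone). Both had their lowest treated value in M-1. Wfdc21 was counted in 3 fragments under PBS and 499 under Salmonella (ratio 159, interval 54 to 772), Stfa2l1, a stefin, in 4 and 239 (57, 22 to 211), and Asprv1, a protease gene, in 6 and 361 (57.4, 26.1 to 157). Cstdc4, a further stefin-like gene outside the list, was counted in 3 and 330 (105, 35.6 to 511). Stefin genes lie in a family of near-identical copies, so their counts could be split between members.

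Genes made in neutrophil precursors differed in level. Elane and Mpo, made at the promyelocyte stage, did not exceed 0.116 and 0.0106 FPKM in the 6 libraries. Ngp, a secondary granule gene, was at 0 in the 3 PBS libraries and at 4.33, 1.04 and 1.35 FPKM under Salmonella, and did not pass (adjusted p = 0.13). It was called in 3 of 25 alternatives. Camp, the cathelicidin gene, was at 0, 0.13 and 0.275 FPKM and at 0.847, 0.258 and 1.35, with overlapping groups. The markers Csf3r (4.37, 4.64 and 1.23 FPKM against 8.01, 4.07 and 9.55, adjusted p = 0.285) and Mmp9 (10.8, 4.94 and 11.2 against 9.84, 12.3 and 12.3, adjusted p = 0.541), also expressed outside neutrophils, overlapped as well. The summed level of the 37 listed markers was 485 to 568 FPKM under PBS and 1160 to 1810 under Salmonella, and S100a11, a widely expressed member that did not pass (adjusted p = 0.791), accounted for 395 to 471 of the PBS sum.

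**Figure D2:**
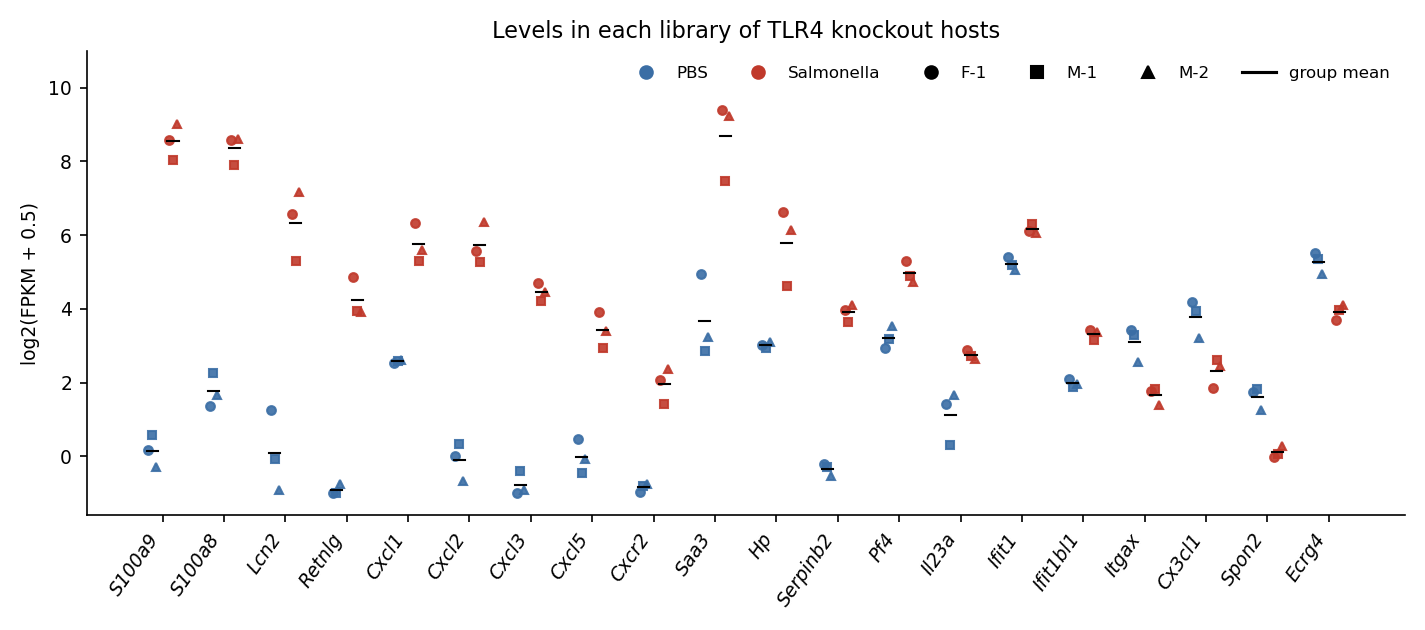
Level in each knockout library of 20 genes, as log2(FPKM + 0.5); blue points are PBS, red points Salmonella, point shapes the library names and black lines group means. The groups do not overlap for any gene shown, from S100a9 (0.314 to 0.993 FPKM against 264 to 518) to Ecrg4 (30.1 to 45.3 against 12.5 to 16.6).

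Chemokine genes of the CXC, CX3C and XC list that passed upwards all encode CXCR2 ligands. Pf4, a chemokine gene counted in the platelet list, also passed upwards. Of 19 tested CXC, CX3C and XC chemokine and receptor genes, 5 rose and 1 fell (median log2 fold change 0.49). The rises were Cxcl1, Cxcl2, Cxcl3, Cxcl5 and Cxcr2 and the fall was Cx3cl1. No member passed without knockout Salmonella F-1 or with voom on the 12 libraries. Cxcl2, an early neutrophil attractant, stood at 0.502, 0.769 and 0.127 FPKM under PBS and at 47, 38.4 and 81.8 under Salmonella (log2 fold change 5.85, SE 0.69, adjusted p = 0.00996). Cxcl3 was at 0, 0.256 and 0.027 FPKM and at 25.3, 18.2 and 21.5 (adjusted p = 0.00996), a ratio of 216 from 11 and 2494 fragments (interval 121 to 434). The treated libraries of Cxcl3 lay within a narrower range than those of Cxcl2.

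Cxcl1, unlike the others, was already measured clearly under PBS, at 5.31, 5.53 and 5.63 FPKM, and reached 80.5, 39.2 and 47.7 under Salmonella (log2 fold change 3.19, SE 0.48, adjusted p = 0.025). Cxcl5, made by epithelial and stromal cells in many tissues, went from 0.875, 0.236 and 0.447 FPKM to 14.5, 7.23 and 10 (3.44, SE 0.46, adjusted p = 0.016). F-1 was the highest treated library for both. The platelet chemokine Ppbp, also a CXCR2 ligand, was at 0, 0.024 and 0.127 FPKM and at 0.715, 1.05 and 1.05 and did not pass (adjusted p = 0.0851). The interferon-inducible chemokines Cxcl9 (71, 115 and 31.6 FPKM against 40.4, 26.8 and 31.1, adjusted p = 0.445) and Cxcl10 (444, 458 and 296 against 470, 564 and 460, adjusted p = 0.654), which attract T cells through CXCR3, did not pass either.

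Of 17 tested CC chemokine and receptor genes, 0 passed in either direction by limma, and 7 were higher and 1 lower at an unadjusted p under 0.05 (median 0.71). The fit on knockout libraries alone called 3 higher, and voom on the recovered fragments of all 12 libraries called 0. The neutrophil and macrophage chemokine Ccl3 was at 5.35, 8.37 and 1.6 FPKM and at 23.3, 17.7 and 48.2 (adjusted p = 0.14). Ccl9 was at 4.5, 5.07 and 2.86 FPKM and at 27.4, 10.7 and 11.8 (adjusted p = 0.0693). Ccl2, the main monocyte attractant, was at 223, 277 and 154 FPKM and at 347, 316 and 296 (adjusted p = 0.307). Groups of these 3 genes did not overlap, and none passed after adjustment. Non-overlapping higher groups were found for 1597 of all 12164 tested genes.

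Acute phase and antimicrobial genes rose in part. Of 25 tested members, 3 rose, Saa3, Hp and Lcn2, and 0 fell (median 0.85), with 9 higher at an unadjusted p under 0.05. Saa3, a serum amyloid A made outside the liver, stood at 30.1, 6.81 and 8.94 FPKM under PBS and at 672, 176 and 598 under Salmonella (log2 fold change 5.04, SE 0.82, adjusted p = 0.0306). Hp, the haemoglobin scavenger haptoglobin, went from 7.54, 7.18 and 8.06 FPKM to 97.5, 23.9 and 70.6 (2.80, SE 0.47, adjusted p = 0.034, and 0.0648 in the fit on knockout libraries alone). In both genes M-1 was the treated library nearest the controls, and F-1 was the highest. Adipocytes express both genes, and the library highest in Hp and Saa3 was also the highest in adipocyte markers, a relation that was not tested. Without that library 0 members of the list passed, as with voom on the 12 libraries.

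Serpinb2, an inhibitor of plasminogen activators that is induced in stimulated macrophages, rose from 0.369, 0.318 and 0.188 FPKM to 15.2, 12 and 16.7 (log2 fold change 4.25, SE 0.51, adjusted p = 0.00996). Its treated libraries varied little beside those of Saa3. Il23a, the p19 subunit of interleukin-23, rose from 2.18, 0.728 and 2.69 FPKM to 6.92, 6.07 and 5.75 (1.64, SE 0.31, adjusted p = 0.0412), with no overlap. In the fit on knockout libraries alone it did not pass (adjusted p = 0.0749), and it was called in 10 of 25 alternatives.

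Several cytokine genes of stimulated macrophages, among them Il1b but not Il23a, missed the threshold in the fit of all 12 libraries. Of 23 tested interleukin-1 family genes, 0 passed and 8 were higher at an unadjusted p under 0.05 (median 0.20). In the fit on knockout libraries alone 4 were higher, and without wild-type Salmonella M-2 6 were. voom on the recovered fragments of all 12 libraries called 0. Il1b was at 11.4, 16.6 and 6.25 FPKM under PBS and at 71.4, 52.8 and 103 under Salmonella (log2 fold change 2.75, SE 0.61, adjusted p = 0.0751, and 0.0434 in the fit on knockout libraries alone). Il1a was at 0.0153, 0.659 and 0.0139 FPKM and at 2.68, 3.58 and 5.31 (adjusted p = 0.108, and 0.026 among knockout libraries alone). Csf3 and Il6 belong to a list of other cytokine genes. Of its 20 tested members 1 passed, Il23a, while 3 were higher and 3 lower at an unadjusted p under 0.05 (median 0.16). Over all tested genes 9.64% were higher and 9.40% lower at that level. Csf3, which encodes the neutrophil growth factor G-CSF, was at 0, 0.0134 and 0.0142 FPKM and at 5.83, 2.34 and 5.3 (adjusted p = 0.0906, and 0.00407 among knockout libraries alone). Il6 was at 0.0794, 0.0456 and 0.216 FPKM and at 7.96, 2.17 and 2.39 (adjusted p = 0.115, and 0.052 among knockout libraries alone). The groups did not overlap for Il1b, Il1a, Csf3 or Il6, and 1597 of all 12164 tested genes had such higher groups. For Tnf the groups did overlap, at 4.82, 7.65 and 2.12 FPKM against 3.72, 3.37 and 8.47 (adjusted p = 0.913).

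Pf4, the platelet and megakaryocyte chemokine platelet factor 4, had the smallest adjusted p in knockout hosts. It stood at 7.14, 8.5 and 11 FPKM under PBS and at 38.7, 28.9 and 26.2 under Salmonella (log2 fold change 1.78, SE 0.16, adjusted p = 0.00158). It was the 1 of 9 tested platelet genes that passed. The summed FPKM of the 20 listed platelet genes was 63.3 to 74.9 under PBS and 77 to 90.1 under Salmonella. Of 33 tested endothelial genes 0 passed, while 13 were higher and 1 lower at an unadjusted p under 0.05 (median 0.42), and 0 passed with voom on the 12 libraries. Without wild-type Salmonella M-2, 4 were higher past the threshold. Among them Emcn, a sialomucin of capillaries and veins, was at 4.22, 3.26 and 4.26 FPKM and at 7.75, 5.73 and 7.76 (adjusted p = 0.0997, and 0.0488 in the fit on knockout libraries alone, where it was the 1 endothelial gene that passed).

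Type I interferon-stimulated genes were shifted upwards by a small amount. Of 40 tested, 2 rose, Ifit1 and Ifit1bl1, and 0 fell. Of the 40, 36 had a positive log2 fold change, against 6152 of all 12164 tested genes. The list median was 0.39, with 23 higher and 1 lower at an unadjusted p under 0.05. The fit on knockout libraries alone called 7 higher and, without wild-type Salmonella M-2, 8 were higher. Without knockout Salmonella F-1, 0 passed, and 1, Ifit1bl1, passed after removal of the GC and length trend or with voom on the 12 libraries. Their summed FPKM was 2940, 2460 and 2370 under PBS and 3880, 3770 and 3330 under Salmonella, without overlap.

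Ifit1, whose product binds viral RNA lacking a methylated cap, went from 41.7, 36.1 and 33 FPKM to 69.2, 78.2 and 66.2 (log2 fold change 0.97, SE 0.19, adjusted p = 0.0412). Ifit1bl1, a neighbouring family member, went from 3.8, 3.21 and 3.4 FPKM to 10.2, 8.34 and 9.84 (1.35, SE 0.21, adjusted p = 0.018). RefSeq lists a second, similar Ifit1bl1 start, so its counts could be split between copies. Rsad2, which encodes viperin, was at 62.2, 47.8 and 60.5 FPKM and at 110, 117 and 107 (1.00, adjusted p = 0.0751, and 0.00783 in the fit on knockout libraries alone). Isg15 was at 367, 272 and 328 FPKM and at 643, 638 and 527 (adjusted p = 0.123), and Usp18, which restrains interferon receptor signalling, at 70.5, 47.9 and 62.1 and at 113, 113 and 82.6 (adjusted p = 0.0997). The groups of these 5 genes did not overlap, and 1597 of all 12164 tested genes had such higher groups. Irf7, the amplifier of interferon transcription, was at 120, 99.7 and 86.1 FPKM and at 164, 128 and 139 (adjusted p = 0.194). The ligand gene Ifnb1 was at 0.0392, 0.27 and 0.0356 FPKM under PBS and at 0.104, 1.17 and 0.14 under Salmonella, with M-1 the highest library in each group.

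The 31 rises under 2-fold had a median log2 fold change of 0.58. Apart from Ifit1, those named here were chosen after their values were seen, and no theme is attached to them. Hsp90aa1, the inducible cytosolic HSP90 chaperone, went from 287, 280 and 262 FPKM to 556, 480 and 481 (log2 fold change 0.90, SE 0.11, adjusted p = 0.00996). Ppid, an HSP90 co-chaperone, went from 39.7, 36.1 and 38 FPKM to 60.9, 57.5 and 57.8 (0.65, SE 0.12, adjusted p = 0.0379). Pnpt1, a mitochondrial exoribonuclease, went from 30.6, 34.7 and 32.7 FPKM to 47.4, 49.9 and 48.5 (0.60, adjusted p = 0.0379). Trmt10c, a subunit of mitochondrial RNase P, rose by 0.65 (adjusted p = 0.0427) and Srp19, a signal recognition particle protein, by 0.59 (adjusted p = 0.025). These shifts were small but the libraries of each group lay close together. Genes with small rises were low in GC content, with a median of 43.4% against 49.8% over all tested genes, and the 40 falls were high, at 56.4%. The median length was 1852 bp for all 54 rises, 3706 bp for the falls and 3368 bp for all tested genes. Across genes the log2 fold change had a Spearman rho of -0.17 with GC content and -0.23 with length, given as a description. After removal of the GC and length trend, 52 of the 92 called genes that could be matched still passed, among them 20 rises of at least 2-fold and 8 of the smaller rises. Ppid (log2 fold change 0.53), Pnpt1 (0.48) and Srp19 (0.29) no longer passed there, whereas Hsp90aa1 and Trmt10c did.

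The largest falls were smaller than the leading rises. Falls outnumbered rises in some fits, with 47 against 31 after removal of the GC and length trend, 16 against 7 with voom on the 12 libraries and 187 against 120 without PBS M-2. Itgax, which encodes CD11c of dendritic cells and some macrophages, went from 10.2, 9.24 and 5.43 FPKM to 2.91, 3.04 and 2.12 (log2 fold change -1.40, SE 0.21, adjusted p = 0.016). Cx3cl1, the membrane-bound chemokine fractalkine, went from 17.7, 14.8 and 8.73 FPKM to 3.08, 5.67 and 4.99 (-1.44, SE 0.26, adjusted p = 0.0402). In both the lowest control was M-2, and no library overlapped. Cx3cr1, the fractalkine receptor of monocytes and macrophages, was at 10.4, 7.14 and 6.54 FPKM and at 2.51, 3.78 and 3.19, and did not pass (adjusted p = 0.264). In the fit on knockout libraries alone the calls were the other way round, with an adjusted p of 0.0736 for Cx3cl1 and 0.0307 for Cx3cr1. Of 25 alternatives, 10 called Cx3cl1 and 3 called Cx3cr1.

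Genes of secreted proteins were also among the falls of at least 2-fold. Spon2, a matrix protein, went from 2.87, 3.06 and 1.89 FPKM to 0.491, 0.54 and 0.705 (log2 fold change -1.48, SE 0.21, adjusted p = 0.0149). Ecrg4, which encodes a secreted peptide precursor, went from 45.3, 40.5 and 30.1 FPKM to 12.5, 15.2 and 16.6 (-1.32, SE 0.21, adjusted p = 0.0269). Their groups did not overlap.

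Falls under 2-fold had a median log2 fold change of -0.58, and of those named here Ltbp3 was chosen after its values were seen. Adgra2, an adhesion receptor that acts in WNT7 signalling, went from 29.6, 24.9 and 24.5 FPKM to 12.9, 15.7 and 15.5 (log2 fold change -0.79, SE 0.11, adjusted p = 0.0106). Ssc5d, a scavenger receptor domain protein, went from 14, 13.1 and 12.3 FPKM to 6.05, 6.33 and 6.67 (-0.96, adjusted p = 0.016). Dusp6, the ERK phosphatase and feedback target, went from 39.1, 41.7 and 36.6 FPKM to 25.9, 28 and 27.6 (-0.49, SE 0.07, adjusted p = 0.016). The collagen receptor Mrc2 (log2 fold change -0.69, adjusted p = 0.0187), the smooth muscle protein Smtn (-0.70, adjusted p = 0.016) and Ltbp3, a binding protein of latent TGF-beta (-0.66, adjusted p = 0.0269), fell by similar amounts. Of 30 tested fibroblast and pericyte genes 0 passed in either direction, with 6 higher and 5 lower at an unadjusted p under 0.05, and 0 with voom on the 12 libraries. Without wild-type Salmonella M-2, 2 were higher and 2 lower past the threshold. The fit on knockout libraries alone called 1 higher, and 1 was lower after removal of the GC and length trend.

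Lists of antigen presentation and lymphocyte genes had negative medians without a gene that passed, beside controls that differed widely. Of 13 tested MHC class II genes, 0 passed, 8 were lower and 0 higher at an unadjusted p under 0.05, and the median log2 fold change was -1.14. Cd74, the invariant chain, was at 598, 1100 and 166 FPKM under PBS and at 127, 80 and 86.3 under Salmonella (adjusted p = 0.13). Ciita, the master regulator of the class, was at 2.81, 4.94 and 0.733 FPKM and at 0.339, 0.33 and 0.216 (adjusted p = 0.0824). The control M-2 lay nearest the treated libraries in both. Without it 7 of the class II genes were lower past the threshold. With voom on the 12 libraries 0 were.

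Of 30 tested T and NK cell genes, 0 passed and 9 were lower at an unadjusted p under 0.05 (median -0.70), and of 16 cytotoxic effector genes 0 passed and 5 were lower (median -0.96). Without PBS M-2, 5 and 4 of them were lower past the threshold, and with voom on the 12 libraries 0 of either list were. The summed FPKM of the T and NK list was 70.5, 111 and 36.1 under PBS and 29.8, 26.8 and 41.8 under Salmonella. For the cytotoxic list it was 136, 352 and 78.3 against 96.9, 135 and 131, and both sums overlapped. Non-overlapping lower groups were found for 8 of the 30 and 3 of the 16 genes, and for 1975 of all 12164 tested genes. Cd8a was at 2.91, 4.04 and 0.622 FPKM under PBS and at 0.273, 0.148 and 0.371 under Salmonella (adjusted p = 0.108). Klrc1, which encodes the receptor NKG2A, was at 2.81, 4.06 and 1.2 FPKM and at 0.368, 0.432 and 0.532 (adjusted p = 0.0906). Ifng was at 2.55, 7.25 and 0.249 FPKM and at 0.199, 0.277 and 0.625, with overlap (adjusted p = 0.233). Ptprc, the pan-leukocyte antigen CD45, was at 17.1, 24.4 and 8.04 FPKM and at 11.3, 8.97 and 12.6 (adjusted p = 0.516), and its control order was that of Cd8a and Ifng.

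Of 38 tested interferon gamma-induced genes, 0 passed, 0 were higher and 14 lower at an unadjusted p under 0.05 (median -0.52). Without PBS M-2, 13 were lower past the threshold, and with voom on the 12 libraries 0 were. Their summed FPKM was 3220, 4320 and 2080 under PBS and 2350, 2410 and 2260 under Salmonella. The type I and the interferon gamma lists thus had medians of opposite sign, 0.39 and -0.52.

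**Figure D3:**
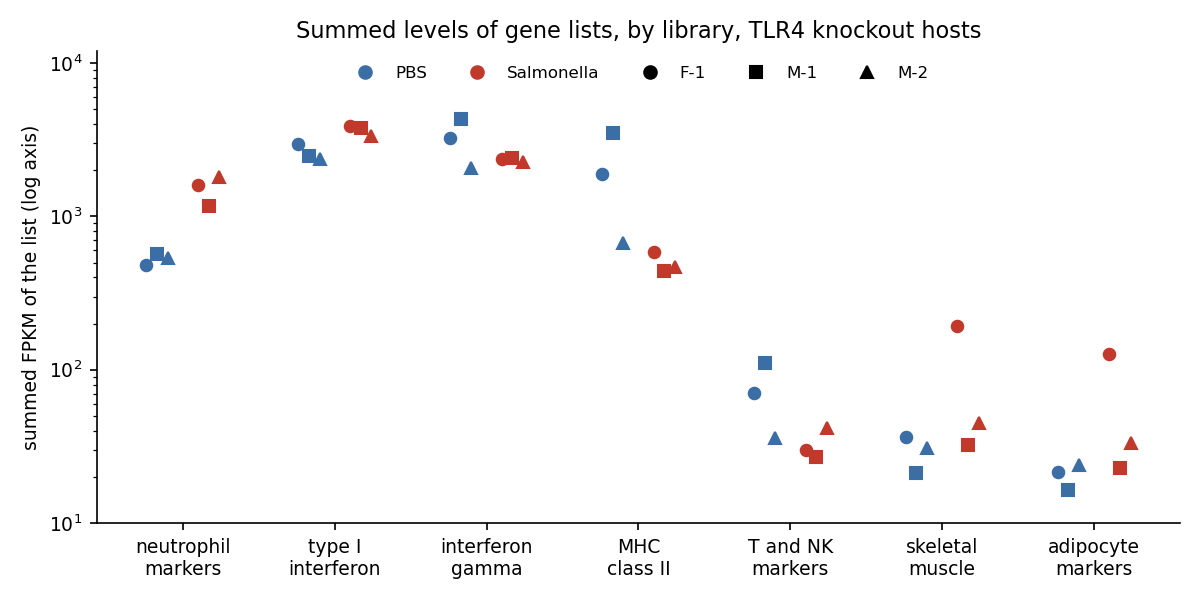
Summed FPKM of 7 gene lists in each knockout library on a log axis; blue points are PBS, red points Salmonella, and shapes mark the library names. The PBS libraries span 671 to 3480 for MHC class II, the treated ones 439 to 586, and Salmonella F-1 stands at 193 for skeletal muscle and 126 for adipocyte genes.

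Genes that sense bacteria showed no common direction. Of 38 tested, 0 passed, 9 were higher and 3 lower at an unadjusted p under 0.05, and the median was -0.06. voom on the 12 libraries called 0, and without wild-type Salmonella M-2 3 were higher and 2 lower past the threshold. Cd14, the lipopolysaccharide co-receptor, was at 8.25, 15.7 and 10.7 FPKM under PBS and at 67.6, 38.4 and 54.8 under Salmonella, without overlap (log2 fold change 2.20, adjusted p = 0.0997, and 0.0377 in the fit on knockout libraries alone). Tlr2 (9.45, 11.3 and 4.79 FPKM against 8.25, 6.1 and 8.76, adjusted p = 0.95), Nod2 (2.92, 2.8 and 1.69 against 1.76, 2.23 and 2.02, adjusted p = 0.66) and Tlr9 (8.34, 7.44 and 3.54 against 4.89, 3.91 and 3.86, adjusted p = 0.298) had overlapping groups. Of 28 tested NF-kB pathway and feedback genes, 0 passed, with 4 higher and 1 lower at an unadjusted p under 0.05 (median 0.20). A positive log2 fold change was found for 24 of the 28, against 6152 of all 12164 tested genes. The fit on knockout libraries alone called 1 of them higher, and voom on the 12 libraries called 0. Without wild-type Salmonella M-2, 4 were higher past the threshold.

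Lists of tumour and tissue state held no gene past the threshold in the fit of all 12 libraries, with medians from -0.11 to 0.26. Some leaned in 1 direction. A positive log2 fold change was found for 9 of 39 cell cycle, 26 of 33 oxidative phosphorylation and 15 of 38 hypoxia and glycolysis genes. The same held for 21 of 25 unfolded protein response genes, 10 of 25 macrophage markers and 6152 of all 12164 tested genes. Of 39 tested cell cycle genes, 0 passed and 8 were lower and 1 higher at an unadjusted p under 0.05 (median -0.09). Mki67, a proliferation marker, was at 30.4, 30.8 and 26.2 FPKM and at 22.1, 31.1 and 28.6 (adjusted p = 0.797). Of 33 oxidative phosphorylation genes 0 passed and 2 were higher (median 0.09). Without wild-type Salmonella M-2, 3 of the 33 passed higher, and after removal of the GC and length trend the median was -0.09 and 1, Cox7c, named after its values were seen, passed lower. Of 38 hypoxia and glycolysis genes 0 passed, 1 was higher and 5 lower (median -0.04). Of 25 unfolded protein response genes 0 passed and 7 were higher (median 0.26), and of 25 macrophage markers 0 passed, 2 were higher and 2 lower (median -0.11). voom on the 12 libraries called 0 genes of these 5 lists, and the fit on knockout libraries alone called 2 unfolded protein response genes higher, 1 hypoxia and glycolysis gene lower and 1 macrophage marker lower. Without wild-type Salmonella M-2, 3 cell cycle genes were lower, 1 hypoxia and glycolysis gene was higher and 3 were lower, 4 unfolded protein response genes were higher and 1 macrophage marker was lower past the threshold.

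**Figure D4:**
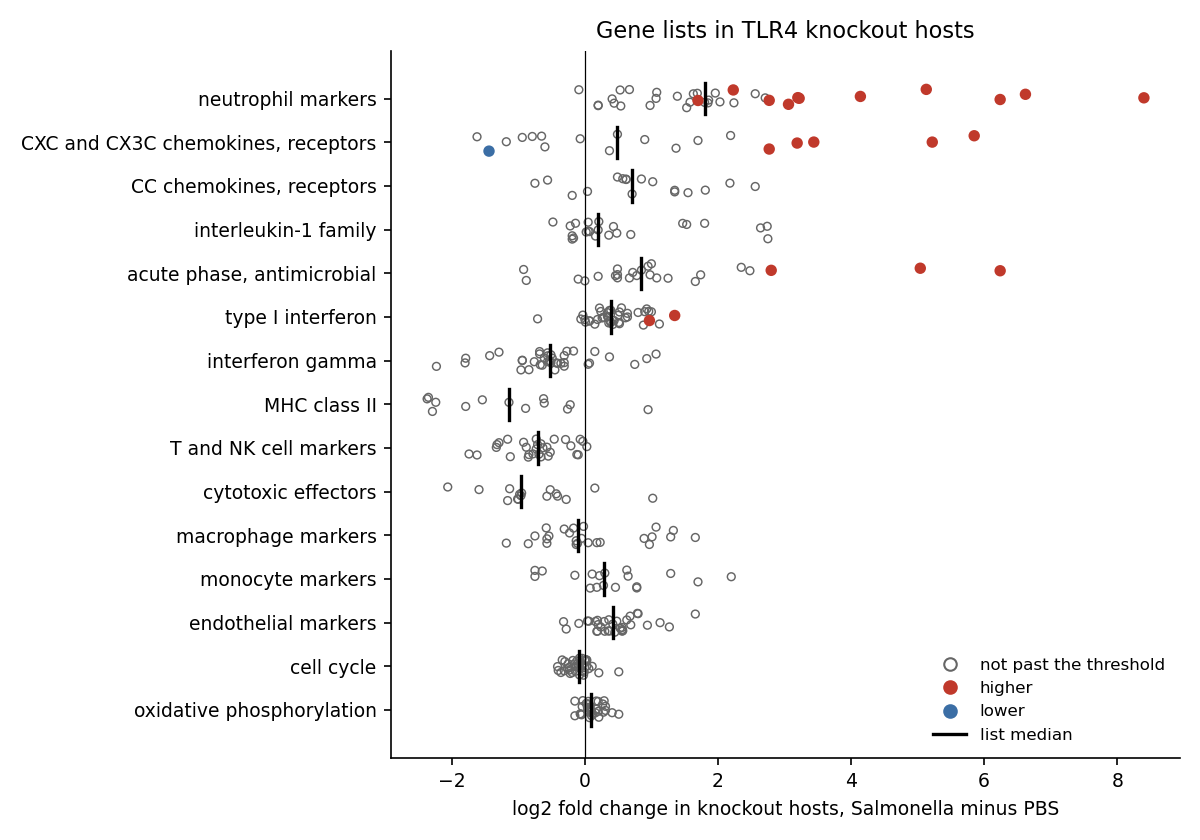
Log2 fold change in knockout hosts (horizontal axis) of each tested member of 15 gene lists; filled points passed the threshold (red higher, blue lower), open points did not, and black bars are list medians. The neutrophil list has the highest median, 1.80, with 11 filled points, and the MHC class II list the lowest, -1.14, with 0.

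Wild-type hosts gave far more calls under the same test, 2259 higher (18.6%) and 2071 lower (17.0%). Of the 54 genes that rose in knockout hosts 45 also rose in wild-type hosts (83.3% of the knockout rises and 1.99% of the wild-type rises). Of the 40 falls 34 also fell there (85% and 1.64%), and 0 were called in opposite directions. The 23 rises of at least 2-fold had a median log2 fold change of 3.22 in knockout and 5.73 in wild-type hosts. Cxcl1 reached 435, 247 and 104 FPKM and Cxcr2 16.4, 25.5 and 9.06 in the wild-type hosts under Salmonella, above all 3 knockout libraries under Salmonella in both cases. The 31 smaller rises had medians of 0.58 and 0.43, and the 35 smaller falls of -0.58 and -0.61.

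The difference between hosts was tested as an interaction, the knockout effect minus the wild-type effect. It passed for 3 genes (0.0247%): Pf4 (-2.13, adjusted p = 0.00874), Tmem40 (-2.32, SE 0.26, adjusted p = 0.00874) and Fabp7 (-2.82, SE 0.37, adjusted p = 0.0266). At an unadjusted p under 0.05 the knockout effect lay below that of wild-type hosts for 994 genes (8.17%) and above it for 752 (6.18%). Pf4, at 122, 131 and 142 FPKM in wild-type hosts under Salmonella, thus rose in knockout hosts by less. Tmem40, a gene of megakaryocytes and platelets, was at 1.7, 2.59 and 2.94 FPKM under PBS and at 1.01, 1.34 and 1.39 under Salmonella in knockout hosts (adjusted p = 0.102), and rose in wild-type hosts to 3.97, 3.76 and 4.9. Fabp7, a fatty acid binding protein gene named after its values were seen, did not exceed 0.355 FPKM in any knockout library and was at 5.72, 3.7 and 3.12 in treated wild-type libraries. Those wild-type libraries alone took Fabp7 past the expression filter, so its entry into the test rested on the group where it was high.

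Of the 23 rises of at least 2-fold, 21 had a negative interaction estimate, 20 of the 23 had an unadjusted p under 0.05 and 1, Pf4, passed. Without wild-type Salmonella M-2 the interaction passed for 16 of the 23, 15 of them negative, and for 2236 genes in all. The 2 positive estimates were those of Il23a and Ifit1bl1. Il23a rose in both hosts by similar estimates (1.64 and 1.33, interaction 0.31, adjusted p = 0.739). Ifit1bl1 was at 5.3, 3.11 and 4.11 FPKM under PBS and at 3.44, 1.8 and 2.69 under Salmonella in wild-type hosts, a log2 fold change of -0.42 that did not pass there (interaction 1.76, adjusted p = 0.101). Ifit1 showed a log2 fold change of 0.31 in wild-type hosts (adjusted p = 0.214, interaction 0.66, adjusted p = 0.313). The median over the type I interferon list was -0.10 in wild-type hosts against 0.39 in knockout hosts, and 18 of its 40 genes had an interaction at an unadjusted p under 0.05, all 18 above 0, while 0 passed after adjustment. S100a9, with the largest rise in knockout hosts, had an interaction of -1.30 (adjusted p = 0.554).

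**Figure D5:**
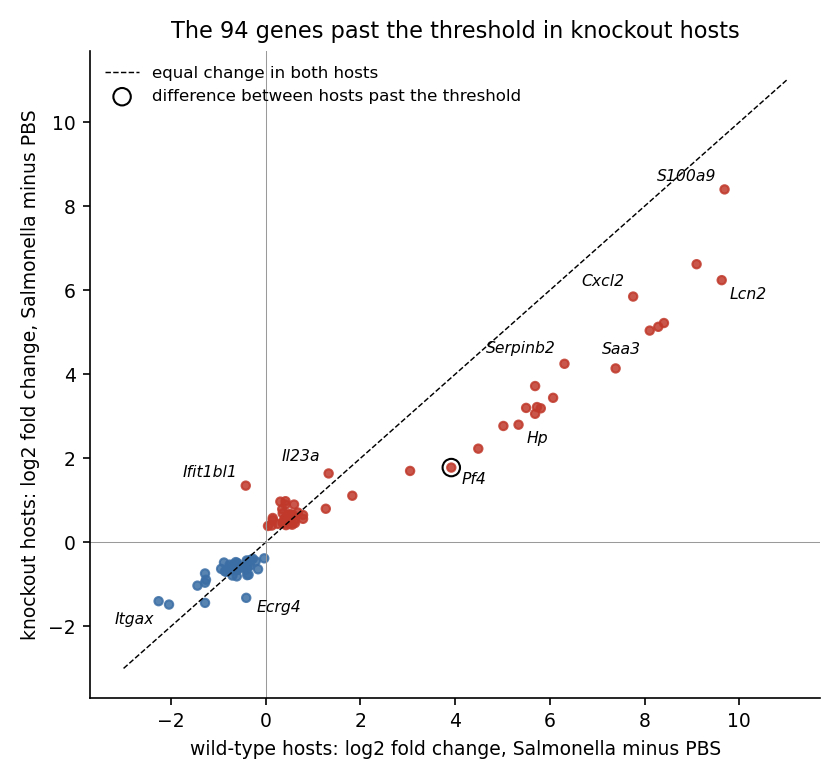
Log2 fold change in knockout hosts (vertical axis) against that in wild-type hosts (horizontal axis) for the 94 genes called in knockout hosts; red rose, blue fell, and the dashed line marks equal change. The large rises lie below the line, with Pf4 circled as the 1 of the 94 whose interaction passed, while Il23a and Ifit1bl1 lie above it.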

How the data were processed

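RNA-seq of total RNA was analysed from 12 tumour libraries in 4 groups of 3, taken from the genotype and treatment labels. Per the labels, extraction used TRIzol and library preparation the VAHTS Universal V6 kit. The submitters' processing notes list fastp, HISAT2 and HTSeq with no version. Strand setting, annotation and genome build were not given in the sources used here. For each library the authors deposited 1 value per gene, whose behaviour is that of FPKM. For 100% of the 18222 genes above 0, all values were whole fragments under a single gene length (tolerance 0.01 fragments), and libraries held 30508678 to 38758885 fragments. The other 387 of 18609 listed genes were at 0 in all libraries. Intervals and floors cover counting error only.

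Tested genes reached 0.5 FPKM in 3 or more libraries. A gene near 0 under PBS could therefore enter through treated libraries alone, and had little room to fall. Scaled FPKM plus 0.5 was taken to log2 and fitted with limma 3.58.1 (R 4.3.3), using an intensity trend and robust moderation. All 12 libraries entered the fit, with a mean for each group, which left 8 residual degrees of freedom. Fold changes are on this scale, which understates those of low genes. Libraries were scaled by an unweighted trimmed mean of log ratios, trimming 30% by ratio and 5% by level. Two-sided p-values were adjusted over the whole set of tested genes (Benjamini-Hochberg), and 0.05 was the threshold. The script was tested on simulated data. No libraries of a group held identical values.

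The members and the 41 gene lists were chosen with earlier results of these data known. Named genes are Tlr4, the 12 largest rises and falls past the threshold with a mean log2 level above 1 and no overlap, up to 4 genes per list by p, the 8 smallest interaction estimates and the 8 smallest interaction p among genes changed at least 2-fold, and list members as examples. Some genes that this rule names are not reported here. Alternatives were median-of-ratios scaling, values as deposited, no filter, only the 6 knockout libraries, a replicate block, the title letter as covariate, pseudocounts of 0.1 and 1, voom on recovered fragments, no trend, and each library left out. Chosen after seeing the data were voom and the replicate block on the 6 knockout libraries and removal of GC and length trends. GC content came from GENCODE M21, matched for 97.8% of tested genes.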

Additional observations from a re-analysis of the deposited data

Results flagged for a closer look

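The change under Salmonella differed between the hosts for 3 genes by the interaction test in limma. The knockout effect minus the wild-type effect was -2.13 on the log2 scale for Pf4, -2.32 for Tmem40 and -2.82 for Fabp7. Fabp7 passed the expression filter only through the treated wild-type libraries, where it was high. Pf4 rose in 3 of 3 treated libraries of either host beyond every control, and by less in knockout hosts. With voom on the recovered fragments 0 genes passed this test, and without wild-type Salmonella M-2 2236 did.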

How the results depend on the processing

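The 54 rises and 40 falls kept their sign in every alternative that tested them, but the number of calls depended on the fit. Rises numbered 22 with no filter, 119 in the 6 knockout libraries alone, 23 with a replicate block, 7 with voom on all 12 libraries, 123 with voom on the knockout libraries and 31 with GC and length trends removed. Falls numbered 21 as deposited, 15 with no filter, 69 in the knockout libraries alone, 22 with a replicate block, 16 and 87 with voom on 12 and on 6 libraries, 24 without trend and 12 with a replicate block on the knockout libraries. The interaction passed for 6 genes as deposited, 0 with voom, 6 without trend and 5 with GC and length trends removed. Leaving out 1 library gave 4 to 433 rises, 0 to 319 falls and 2 to 2236 interactions. The causes were not tested. The replicate block has no support in the labels, and same-named libraries deviated from their group means with correlations of 0.12, -0.12 and -0.19. Of the 94 calls, 40 were kept under the replicate block. S100a8, S100a9 and Retnlg passed in 24 of 25 alternatives, the exception being voom on all 12 libraries, and Pf4 in 24 of 25, the exception being the replicate block on the knockout libraries (adjusted p = 0.0937). Log2 fold changes turned sign for 5 named genes that did not pass: over the fits with 1 library left out, Tlr4 ranged from -0.38 to 0.01, Tlr2 from -0.39 to 0.18, Mki67 from -0.17 to 0.04 and Tnf from -0.29 to 0.51, and Fabp7 was at -0.09 with GC and length trends removed. Depth limits genes such as Ly6g, at 0 in the PBS libraries.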

Other observations

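Further lists held genes whose treated libraries all lay above the controls without passing. Of all 12164 tested genes, passing or not, 1597 had such higher groups and 1975 had non-overlapping lower groups. Hmox1, the haem-degrading enzyme haem oxygenase 1, was at 177, 175 and 218 FPKM under PBS and at 441, 290 and 389 under Salmonella (log2 fold change 0.99, adjusted p = 0.0906). Thbs1, the matrix protein thrombospondin 1, was at 11.3, 14.7 and 13 FPKM and at 49.3, 38 and 40.4 (1.70, adjusted p = 0.132). Angptl4, an inhibitor of lipoprotein lipase, was at 7.09, 6.6 and 6.36 FPKM and at 19.6, 12 and 16.5 (1.20, adjusted p = 0.0717). Cebpd, a C/EBP transcription factor gene, was at 7.28, 7.63 and 5.88 FPKM and at 26.2, 11.6 and 19.1 (1.35, adjusted p = 0.0751). Fn1, the fibronectin gene, lay the other way, at 717, 638 and 587 FPKM and at 434, 336 and 458 (-0.64, adjusted p = 0.101).

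The 22 tested metal and haem genes held 1 rise, Hp, and 0 falls (median log2 fold change 0.28). Over all 12164 tested genes, 6152 had a positive log2 fold change. Of 7 tested Schlafen genes 0 passed, and 7 of 7 had a positive log2 fold change (median 0.45). Of 18 tested skeletal muscle genes 0 passed and 18 of 18 had a positive log2 fold change (median 0.89), a median that was 0.18 over 17 genes without Salmonella F-1.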
